A study of Mus musculus with 20 samples.

Results

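miR-128, miR-129 and miR-137 are brain miRNAs studied for their effects on how readily neurons fire. Every entry with 1 of these stems was taken from the deposited expression table, whatever its arm or gene copy, which gave 5 of 281 miRNAs, listed as mmu-mir-128-3p, mmu-mir-129-5p, mmu-mir-129-1-3p, mmu-mir-129-2-3p and mmu-mir-137-3p. The rule went by name and used no expression value, though earlier results of these data were known when it was set. They were measured by small RNA sequencing in the right ventral hippocampus of 20 male wildtype C57BL/6JOlaHsd mice that carried no disease model. Cannabidiol (CBD), a plant cannabinoid used against some epilepsies, was injected intraperitoneally at 200 mg/kg/day, divided over 2 injections per day, for 5 days in 10 mice, and the other 10 received vehicle on the same schedule. The comparison asks whether CBD changes miRNA levels in naïve mice.

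A miRNA is cut from a hairpin precursor, whose 5p and 3p arms can each be loaded into an Argonaute protein, and it pairs with target mRNAs mainly through its seed, bases 2 to 8. In the mouse, miR-128 lowers the expression of ion channel and ERK signalling genes in neurons, and mice that lack it in forebrain neurons develop seizures. miR-129-5p is known to repress the potassium channel Kv1.1 and to take part in the downscaling of synapses after prolonged activity, and miR-137 acts on presynaptic vesicle release and maps to a human schizophrenia risk locus.

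The mature sequences show which entries can be separated by their reads. They are given 5′ to 3′ from RefSeq on GRCm38.p6, with the seed in capitals, and 4 of the 5 entries were matched there. Host genes are those of the GENCODE annotation of GRCm38.
miR-128-3p: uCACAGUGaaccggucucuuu
miR-129-5p: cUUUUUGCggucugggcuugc
miR-129-2-3p: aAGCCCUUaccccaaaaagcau
miR-137-3p: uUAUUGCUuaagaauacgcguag
miR-129-1-3p is named only. The 4 seeds differ from each other, so the 2 arms of miR-129 and the other miRNAs recognise different target sites.

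miR-128-3p is encoded by a pair of genes with the same mature sequence, at chr1:128202404-128202424 on the plus strand, in an intron of R3hdm1, and at chr9:112118644-112118664 on the minus strand, in an intron of Arpp21, a gene for a neuronal phosphoprotein. Its reads therefore sum both genes. Of the miRNAs in the table, miR-27a-3p and miR-27b-3p carry the same 7 bases, shifted by 1 base to bases 3 to 9 and printed here in capitals.
miR-27a-3p: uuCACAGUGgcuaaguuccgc
miR-27b-3p: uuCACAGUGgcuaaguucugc
miR-27b-3p had a mean log2 level of 12.01 and ranked 34 of 281, and miR-27a-3p a mean of 7.86 and rank 166. No other miRNA of the table with a RefSeq sequence, 247 of 281, held any of the 4 printed seeds at bases 2 to 8 or 1 base away.

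miR-129 also comes from 2 genes. Mir129-1 lies at chr6:29022619-29022691 on the plus strand, in an exon of the long non-coding RNA Gm3294, and Mir129-2 at chr2:94241364-94241453 on the minus strand, in an intron of the long non-coding RNA Mir670hg. Both hairpins are shown to locate the arms, with the 5p arm and the 3p arm (for Mir129-1 the stretch closest to miR-129-2-3p) in capitals.
Mir129-1: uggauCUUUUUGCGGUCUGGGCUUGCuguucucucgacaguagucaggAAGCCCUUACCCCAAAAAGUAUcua
Mir129-2: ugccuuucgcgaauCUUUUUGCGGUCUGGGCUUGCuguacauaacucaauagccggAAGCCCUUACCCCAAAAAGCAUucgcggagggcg
The 5p arms are identical, so miR-129-5p reads cannot be assigned to a gene. The 3p stretches share their first 19 bases and differ by C20U, counted from the 5′ end of miR-129-2-3p. A read that ends before base 20 cannot be assigned to either copy, and no source used here says how the authors counted such reads. The Mir129b gene on the opposite strand of Mir129-2 was not among the 281 entries. miR-137-3p comes from 1 gene, at chr3:118433901-118433923 on the plus strand, in an exon of the non-coding transcript Gm26871. The opposite arms miR-128-1-5p, miR-128-2-5p and miR-137-5p were not among the 281 entries either.

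The listed library sizes lay between 242178 and 1245429 reads, and the table's entries held 99.2% to 99.6% of them. The smallest read number of any of the 5 miRNAs in any library was 22. Levels are the authors' log2 reads per 1000000 reads (RPM), set against an effective library size that was 0.693 to 1.17 times the listed size. This scaling factor was under 0.8 in 3 libraries. They were CBD replicate 6 and vehicle replicate 5 of run 2 and CBD replicate 8 of run 3. The tests of treatment, run, ratios and covariation were also made without them. A deposited technical table lists a run number from 1 to 4, with 5, 6, 4 and 5 libraries and both treatments in each run, and each run holds a block of neighbouring mouse numbers. What a run stands for is not stated, and sequencing, preparation and cohort cannot be told apart. The neuronal markers of the labelled tissue were present: miR-9-5p ranked 2 by mean level and miR-124-3p ranked 72. Both mark neural tissue and say nothing of its region. In bulk tissue, fewer cells of a type and less miRNA per cell cannot be told apart.

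miR-128-3p had by far the most reads of the 5. It ranked 7 of 281 and took 2.49% ± 0.599 (SD, n = 20) of the listed reads, with 2126 to 41268 reads per library. In CBD mice its log2 level was 14.37 at the lowest, 14.58 at the median and 14.85 at the highest, and in vehicle mice 13.44, 14.59 and 15.17. The CBD libraries all lay inside the vehicle range, which was set by 2 vehicle libraries of run 2, replicate 5 at the bottom and replicate 4 at the top.

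On the authors' scaling, the level of miR-128-3p was very even in the CBD mice and less so in the vehicle mice. Its SD over the CBD mice, 0.148 on the log2 scale, was the smallest of all 281 miRNAs, whose median SD was 0.543. Its SD over the vehicle mice was 0.455, which ranked 95 from the smallest against a median of 0.533. Over all 20 libraries the SD was 0.330, rank 260 from the largest, and within runs 0.336, rank 231 from the largest. Without vehicle replicate 5, the vehicle SD was 0.241, rank 22 from the smallest, and the SD over the remaining 19 libraries was 0.205, rank 3 from the smallest. Vehicle replicate 5 was the smallest library, and miR-128-3p took 0.878% of its listed reads. The SD was not ranked without CBD replicates 6 and 8, whose scaling factor was under 0.8. Among CBD mice their shares of the listed reads were the lowest, at 1.76% and 2.05%. Their log2 levels were 14.59 and 14.85, the second being the highest CBD value. The share was 2.34% ± 0.298 in CBD mice and 2.63% ± 0.789 in vehicle mice (SD, n = 10 per group). No test of the spread between groups was made.

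miR-129-5p, the arm that represses Kv1.1, came next and ranked 36 of 281, with 1259 to 6584 reads per library. Its log2 level was 11.26, 11.96 and 13.35 in CBD mice (lowest, median, highest) and 11.14, 11.83 and 12.70 in vehicle mice. The highest value was that of CBD replicate 8, the library with the lowest scaling factor. The next 2, CBD replicate 6 with 12.71 and vehicle replicate 5 with 12.70, were the other libraries with a factor under 0.8. As a share of the listed reads, CBD replicate 8 was still the highest, at 0.724%. CBD replicate 6 with 0.478% and vehicle replicate 5 with 0.525% then stood below others, such as vehicle replicate 2 with 0.647%.

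The 3p arm of the second copy, miR-129-2-3p, ranked 48 of 281 with 316 to 5277 reads. Its lowest, median and highest log2 levels were 10.41, 11.20 and 11.99 in CBD mice and 10.13, 11.04 and 12.46 in vehicle mice. The groups overlapped over the whole CBD range, and the 2 highest values were vehicle replicates 5 and 3 of run 2. miR-129-1-3p, from the first copy, had the fewest reads of the 5, rank 181 of 281 with 22 to 411 reads. Its log2 levels were 6.58, 7.91 and 8.23 in CBD mice and 6.51, 7.37 and 9.04 in vehicle mice. Its highest value was again vehicle replicate 5, and every CBD value lay inside the vehicle range.

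miR-137-3p, the presynaptic regulator, ranked 67 of 281 with 162 to 2956 reads. Its lowest, median and highest log2 levels were 9.44, 10.80 and 11.26 in CBD mice and 9.63, 10.92 and 11.51 in vehicle mice. In both groups 2 libraries lay under 10, CBD replicates 2 and 4 and vehicle replicates 4 and 5, all from runs 1 and 2, and the groups overlapped over nearly their whole ranges.

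The order of the levels was largely kept from mouse to mouse. The mature miRNAs are of similar length, so levels were compared per read without dividing by length. How evenly the library preparation captures different miRNAs was not tested, so the order is one of read numbers. miR-128-3p stood above miR-129-5p in 20 of 20 libraries, by a mean of 2.59 ± 0.71 (SD, n = 20) on the log2 scale. miR-129-5p stood above miR-129-2-3p in 19 of 20, by 0.85 ± 0.60. miR-129-2-3p and miR-137-3p did not differ beyond their spread: the first was higher in 11 of 20 libraries, by 0.44 ± 1.16. miR-137-3p stood above miR-129-1-3p in 20 of 20, by 3.13 ± 1.15.

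**Figure D1:**
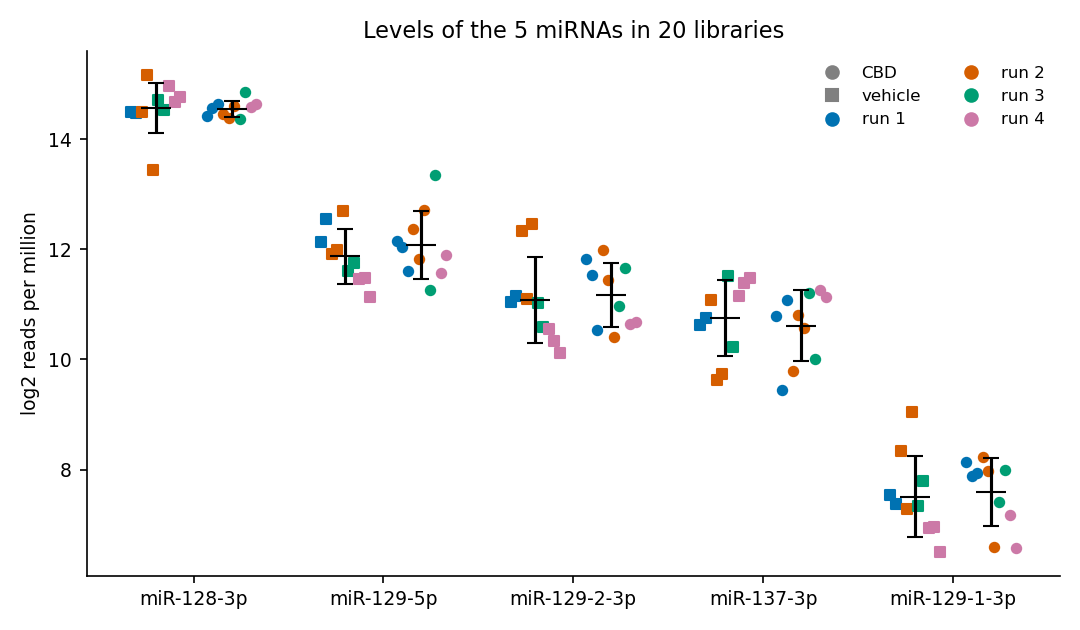
The log2 RPM of each miRNA (y axis) are plotted for every library, with vehicle mice as squares on the left, CBD mice as circles on the right, colours for runs 1 to 4, and black bars for the mean ± SD of 10 mice. The 2 groups overlap for every miRNA, the CBD values of miR-128-3p are the tightest, and vehicle replicate 5 lies apart at 13.44.

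None of the 5 miRNAs passed the test between CBD and vehicle mice. Differences are CBD minus vehicle on the log2 scale, from limma fitted to the whole table, and 0 of the 5 had an adjusted p under 0.05, as did 0 of the 281 miRNAs (a background of 0%). At an unadjusted p under 0.05 there were 0 of the 5 and 22 of the 281 (7.83%), and 42 of the 281 (14.9%) with run as a further term. With limma array weights, 24 of the 281 (8.54%) and 0 of the 5 had an adjusted p under 0.05, and 57 of the 281 (20.3%) and 1 of the 5 an unadjusted one. With array weights and the run term, 0 of the 281 had an adjusted p under 0.05, and 57 of the 281 (20.3%) and 0 of the 5 an unadjusted one. With voom weights 0 of the 281 had an adjusted p under 0.05.

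The interval was narrowest for miR-128-3p. CBD mice averaged 14.55 ± 0.15 and vehicle mice 14.57 ± 0.46 on the log2 scale (SD, n = 10 per group). The difference was -0.018 with an SE of 0.16 and a 95% interval from -0.36 to 0.32 (limma, adjusted p = 0.965), which is 0.782 to 1.25 times the vehicle level. The fit bounded any change of this miRNA more closely than those of the other 4, and its sign turned to a difference of 0.0027 when run was a term. It was larger in size with array weights, at -0.22 (limma unadjusted p = 0.0546, adjusted p = 0.247), and without the 3 libraries of low scaling factor, at -0.19 (adjusted p = 0.792). Within runs 1 to 4 it was 0.064, 0.11, -0.0063 and -0.19.

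miR-129-5p averaged 12.08 ± 0.61 in CBD mice and 11.87 ± 0.49 in vehicle mice (SD, n = 10 per group). The difference was 0.21 (SE 0.24, 95% interval -0.29 to 0.70, limma adjusted p = 0.847), and 6 of 10 CBD mice lay above the vehicle mean. It was -0.41 within run 1 and 0.10, 0.63 and 0.37 within runs 2 to 4. With the run term it was 0.15. Without the 3 libraries of low scaling factor it was 0.060, and it turned to -0.043 when these were left out and run was a term.

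miR-129-2-3p averaged 11.17 ± 0.59 in CBD mice and 11.07 ± 0.78 in vehicle mice, a log2 difference of 0.09 (SE 0.29, 95% interval -0.50 to 0.69, limma adjusted p = 0.965). miR-129-1-3p, with fewer reads, averaged 7.59 ± 0.62 and 7.51 ± 0.73, a difference of 0.08 (SE 0.29, 95% interval -0.52 to 0.68, limma adjusted p = 0.965). Both 3p arms were lower with CBD within run 2, by -0.69 and -0.62. In that run CBD replicate 6 was the lowest for both, at 10.41 and 6.59. Vehicle replicate 5 was the highest, at 12.46 and 9.04. Both libraries had a low scaling factor, and the run 2 difference without them was not computed. Both arms were higher with CBD within each of the other 3 runs. There the differences were 0.19, 0.51 and 0.32 for miR-129-2-3p and 0.53, 0.13 and 0.08 for miR-129-1-3p. With the run term the differences were 0.019 and -0.012. Both were larger with array weights, at 0.46 for miR-129-2-3p (limma unadjusted p = 0.0522, adjusted p = 0.246) and 0.49 for miR-129-1-3p (unadjusted p = 0.0444, adjusted p = 0.223), and were 0.11 and 0.14 with array weights and the run term. Without the 3 libraries of low scaling factor they were 0.28 and 0.33 (adjusted p = 0.897 and 0.866). Left out in turn, vehicle replicate 10 was the only library without which either sign turned, to -0.012 and -0.029.

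miR-137-3p averaged 10.61 ± 0.64 in CBD mice and 10.76 ± 0.69 in vehicle mice (SD, n = 10 per group). The difference was -0.15 (SE 0.28, 95% interval -0.73 to 0.44, limma adjusted p = 0.915), although 6 of 10 CBD mice lay above the vehicle mean. Within runs 1 to 4 it was -0.25, 0.24, -0.25 and -0.14, and with the run term -0.073. It was -0.30 with array weights (adjusted p = 0.484) and -0.18 without the 3 libraries of low scaling factor. For the 4 miRNAs other than miR-128-3p, the upper ends of the 95% intervals lay at 1.36 to 1.63 times the vehicle level and the lower ends at 0.603 to 0.819 times. The authors' deposited comparison gave log2 fold changes whose sign matched that of CBD minus vehicle here for 266 of the 281 miRNAs. For miR-128-3p, miR-129-5p, miR-129-2-3p, miR-129-1-3p and miR-137-3p they were -0.0095, 0.14, 0.049, 0.044 and -0.11. The authors' unadjusted p-values for these were 0.945, 0.499, 0.819, 0.847 and 0.594.

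**Figure D2:**
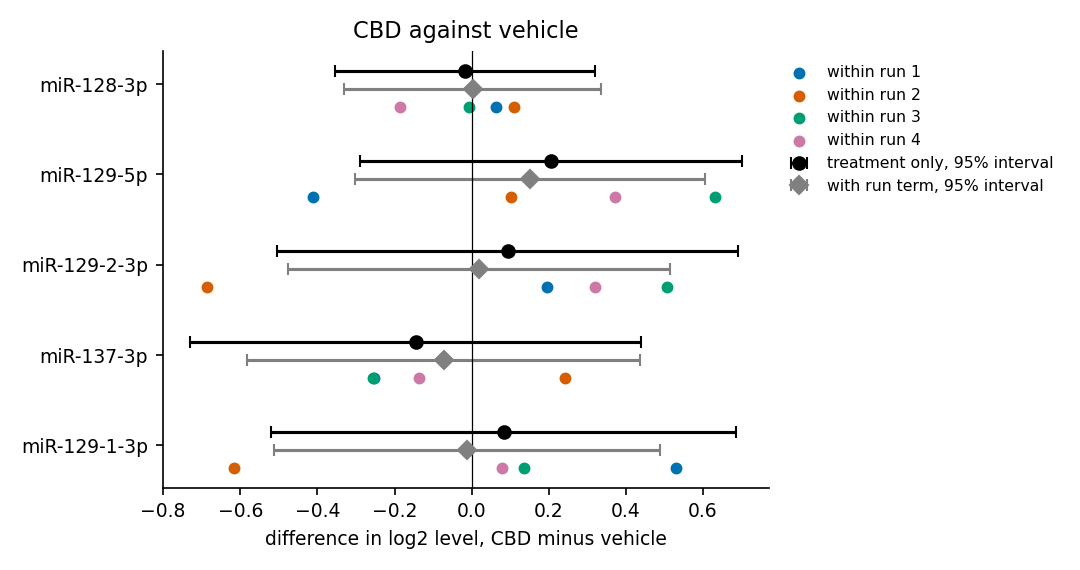
For each miRNA the x axis gives the difference in log2 level, CBD minus vehicle, as a black circle for the fit with treatment only and a grey diamond for the fit with the run term, both with 95% intervals, and as coloured points within each run (for miR-137-3p the points of runs 1 and 3 lie on each other at -0.25). Every interval includes 0, and that of miR-128-3p is the narrowest.

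The 2 arms of miR-129 gave a balance that a common scaling of the library cannot change. The 5p arm held 62.6% ± 10.0 of all miR-129 reads in CBD mice and 61.3% ± 8.80 in vehicle mice (SD, n = 10 per group), and it outnumbered the summed 3p arms in 19 of 20 libraries. The share ran from 41.1% in vehicle replicate 3 (95% Wilson interval 39.4% to 42.9%) to 82.2% in CBD replicate 6 (80.4% to 83.9%), around a median of 63.5%. The libraries therefore differed in this share by far more than counting error, and both ends of the range came from run 2. The mean log2 ratio of 5p to summed 3p was 0.79 ± 0.68 in CBD mice and 0.68 ± 0.53 in vehicle mice, a difference of 0.11 (two-sided permutation test, p = 0.692). It was -0.64, 0.78, 0.16 and 0.07 within runs 1 to 4, and with run means removed 0.13 (exact permutation test within runs, p = 0.682). Without the 3 libraries of low scaling factor it was -0.23 (permutation test, p = 0.327), and it also turned without CBD replicate 6 alone, to -0.045, or without vehicle replicate 3 alone, to -0.021.

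The 2 gene copies contributed very unequally to the 3p reads, and their proportion had a smaller spread than that of the arms. Reads listed under miR-129-2-3p outnumbered those under miR-129-1-3p by 11.8-fold (geometric mean over 20 libraries). The SD of the log2 ratio over the libraries was 0.35, against 0.60 for the ratio of the arms. Copy 1 held 5.51% to 14.2% of the 3p reads, with a median of 7.45%, and under 9% in 18 of 20 libraries. The exceptions were CBD replicate 3 with 14.2% (95% Wilson interval 12.5% to 16.0%) and vehicle replicate 7 with 12.5% (10.3% to 15.1%). The mean log2 ratio of copy 1 to copy 2 was -3.57 ± 0.39 in CBD mice and -3.56 ± 0.33 in vehicle mice, a difference of -0.011 (two-sided permutation test, p = 0.946). Within runs 1 to 4 it was 0.34, 0.07, -0.37 and -0.24, and an exact permutation within runs gave p = 0.858. Since reads that stop before base 20 fit both copies, the proportion depends on how they were assigned.

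**Figure D3:**
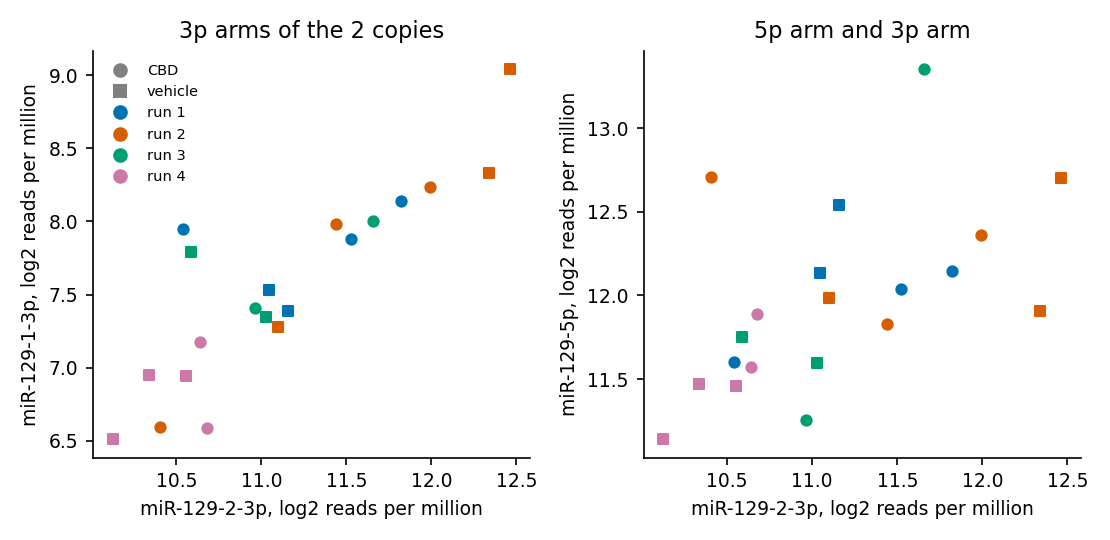
Log2 RPM of miR-129-1-3p (left, y axis) and miR-129-5p (right, y axis) are plotted against miR-129-2-3p (x axis) for 20 libraries, with circles for CBD, squares for vehicle and colours for runs. The 3p arms of the 2 copies rise together, with CBD replicate 3 and vehicle replicate 7 above the band on the left, while the 2 arms on the right scatter widely, with CBD replicates 8 and 6 at the top.

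The 3p arms of miR-129 differed between runs. In the limma F test over runs, with treatment in the fit, 2 of the 5 had an adjusted p under 0.05, miR-129-2-3p (adjusted p = 0.0362) and miR-129-1-3p (adjusted p = 0.0403), beside 135 of 281 miRNAs (48.0%), so the members' share was no higher than that of the table. The mean log2 level of miR-129-2-3p in runs 1 to 4 was 11.22, 11.62, 11.06 and 10.47, and that of miR-129-1-3p 7.78, 7.91, 7.64 and 6.83. The 5 libraries of run 4 were low for both, from 10.13 to 10.68 and from 6.51 to 7.18, and the values of run 2 were the most scattered, with an SD of 0.79 and 0.86.

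Both calls depended on single libraries and on the scaling. The adjusted p of miR-129-1-3p rose to between 0.0511 and 0.103 without any single one of vehicle replicates 1, 3, 5, 7, 8, 9 and 10 or CBD replicates 1, 4 and 10. That of miR-129-2-3p rose to between 0.0507 and 0.0822 without any single one of vehicle replicates 2, 3, 5, 8, 9 and 10 or CBD replicates 4, 9 and 10. The fitted run levels still lay 0.92 to 1.34 apart for the first and 0.96 to 1.40 apart for the second, from highest to lowest. These ranges came from the fits that each left out 1 of the 20 libraries, with treatment in the fit. Both calls were also lost with each library centred on its median miRNA (adjusted p = 0.0789 and 0.0729) or scaled to 1 summed value (0.0831 and 0.0990), and that of miR-129-2-3p with quantile normalisation (0.0811). With the log2 scaling factor as a further term they were 0.0774 and 0.0733. Both calls held without the 3 libraries of low scaling factor (limma adjusted p = 0.0176 for miR-129-1-3p and 0.0212 for miR-129-2-3p). Without CBD replicate 6 alone the adjusted p was 0.0111 for each.

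miR-137-3p went the other way over the runs, with means of 10.54, 10.27, 10.74 and 11.28 and its highest run mean in run 4, but it did not pass the test (limma adjusted p = 0.0753). Its values in run 4 lay close together, from 11.14 to 11.47. It passed without CBD replicate 2 (adjusted p = 0.0457) or without vehicle replicate 3 (adjusted p = 0.0449). miR-129-5p averaged 12.09, 12.25, 11.99 and 11.51 (adjusted p = 0.163), and 0.0181 without CBD replicate 8, whose 13.35 stood in a run where the other 3 libraries had 11.26 to 11.75. miR-128-3p was the least affected, with run means of 14.52, 14.42, 14.61 and 14.72 (adjusted p = 0.598).

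Summed levels of markers of other cell types are given by run and by treatment, with no test. The summed level of 3 listed immune and microglia markers of 6 was 10429 to 24979 RPM in run 2 and 3526 to 9562 in the other runs. The summed level of 4 listed choroid plexus and ependyma markers of 7 was 20611 to 34538 in run 3 and 4287 to 21989 elsewhere. The 4 oligodendrocyte markers summed to 2368 to 6345 in run 1 and 899.2 to 5161 elsewhere. The blood vessel markers summed to 4048 to 8480 in run 3 and 3144 to 8931 elsewhere. The neuron markers summed to 130653 to 218603 in run 3 and 74908 to 164518 elsewhere. The immune range in run 2 lay above that of the other runs, while the other lists overlapped between runs. Between treatments every list overlapped. The choroid plexus markers had a median of 18543 with CBD (5646 to 23685) and 8246 with vehicle (4287 to 34538), the widest gap of medians in proportion. The immune markers had medians of 6871 (3786 to 20821) and 8694 (3526 to 24979), and the oligodendrocyte markers 2082 (899.2 to 3250) and 2298 (1014 to 6345). The 4 blood vessel markers had medians of 3745 (3144 to 5698) and 4745 (3353 to 8931), and the 3 neuron markers 141273 (74908 to 218603) and 116920 (78565 to 143048). The neuron sum was mostly miR-9-5p, with a mean log2 level of 16.85 against 10.56 for miR-124-3p. The log2 difference, CBD minus vehicle, was 0.14 for miR-9-5p and -0.54 for miR-124-3p, so the sum does not speak for each neuron marker. No listed marker was at 0 in any library. The part of these cell types in the run and treatment differences of the 5 miRNAs was not tested.

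**Figure D4:**
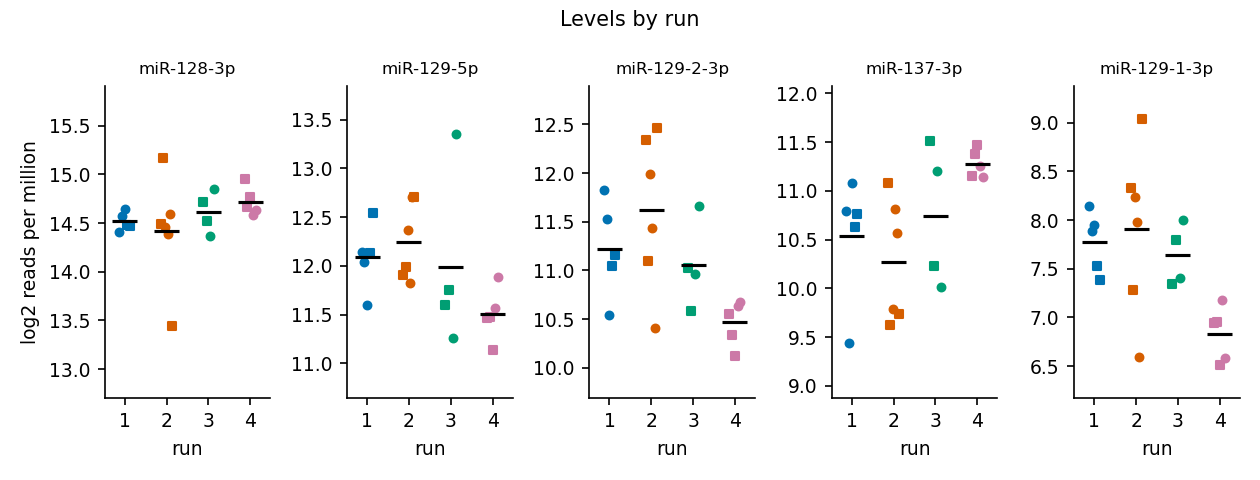
Each panel gives the log2 RPM of 1 miRNA (y axis, the same span of log2 units in every panel) by run (x axis), with circles for CBD, squares for vehicle and black lines for run means. The 3p arms of miR-129 are lowest in run 4, where miR-137-3p is highest, and miR-128-3p stays between 14.37 and 14.95 apart from 2 vehicle libraries of run 2.

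With run means removed, 1 of the 10 pairs of these miRNAs rose and fell together from mouse to mouse. miR-129-1-3p and miR-129-2-3p had a Pearson's r of 0.79 over 20 libraries (permutation test within runs, p = 0.00144, adjusted p = 0.0144 over 10 pairs) and a Spearman's rho of 0.67 (p = 0.0110, adjusted p = 0.110). That r lay above 99.0% of the 39340 pairs of the table, whose median r was 0.01 and whose central 90% ran from -0.55 to 0.62. Without CBD replicate 6 and vehicle replicate 5, the 2 libraries farthest from the median, it was 0.58. Without the 3 libraries of low scaling factor it was 0.51 (adjusted p = 0.420), so the call rested on them, and with quantile normalisation it was 0.64 (adjusted p = 0.196). Near-identical sequences share reads that cannot be assigned, and the part of this in the r was not tested.

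The 5p and 3p arms of miR-129 rose and fell together less closely, a difference in r that was not tested. miR-129-5p and miR-129-2-3p had r = 0.31 (permutation test within runs, p = 0.208, adjusted p = 0.434) and rho = 0.39 (p = 0.133, adjusted p = 0.444), and r was 0.17 without CBD replicates 8 and 7. Among 62 hairpins of the table with both arms listed, the median r between arms was 0.20, with quartiles of -0.17 and 0.45, and 26 had a higher r than miR-129. The arms of miR-129 therefore stood in the middle of that range.

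The other pairs did not pass the adjusted threshold. The most negative were miR-128-3p with miR-129-1-3p, r = -0.57 and rho = -0.28 (adjusted p = 0.379 and 0.581), which fell to an r of -0.10 without vehicle replicates 5 and 4. miR-129-5p with miR-137-3p had r = -0.47 and rho = -0.49 (adjusted p = 0.379 and 0.337), and r was -0.31 without CBD replicates 8 and 7. These 2 relations were of opposite sign to that of the miR-129 copies, and the first shrank without the vehicle libraries at the 2 ends of the miR-128-3p range, though it was -0.53 without the 3 libraries of low scaling factor, which include vehicle replicate 5 and not replicate 4.

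**Figure D5:**
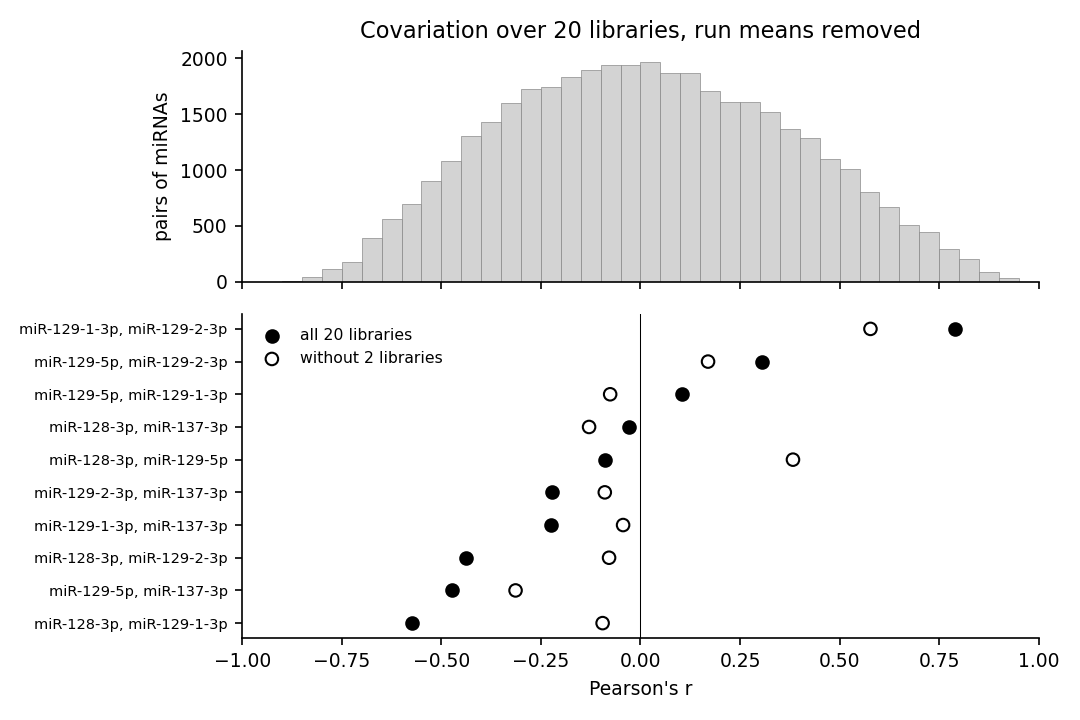
The upper panel counts the 39340 pairs of miRNAs by Pearson's r over 20 libraries with run means removed. The lower panel gives r for the 10 pairs of the 5 miRNAs on the same x axis, filled for all 20 libraries and open without the 2 farthest libraries: the 3p arms of miR-129 lie at 0.79 and 0.58, and most other pairs move toward 0 when the 2 libraries are left out.

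Other miRNAs whose mouse-to-mouse pattern was most like that of each of the 5 were found as a description. Pearson's r with run means removed was used, over 20 libraries. It was not computed again without the 3 libraries of low scaling factor. For miR-129-5p they were miR-434-3p with 0.91, miR-1843a-3p with 0.89 and miR-140-3p with 0.88. For miR-129-2-3p they were miR-7a-2-3p with 0.91, miR-532-3p with 0.81 and miR-326-3p with 0.79, and for miR-129-1-3p they were miR-664-3p with 0.81, let-7e-3p with 0.72 and, again, miR-7a-2-3p with 0.71. The 2 copies' 3p arms thus shared 1 neighbour, and miR-129-5p shared none with them.

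For miR-137-3p the nearest were miR-29a-5p with 0.85, miR-9-3p with 0.85 and miR-376b-5p with 0.81. miR-128-3p had no close neighbour: its nearest were miR-378a-3p with 0.62, miR-382-5p and miR-100-5p with 0.58 each. All of these miRNAs share libraries and scaling, and miR-129-5p in particular had r = -0.76 and rho = -0.60 with the log2 scaling factor (permutation p = 0.0146 and 0.0201, adjusted p = 0.124 and 0.201 over 10 such relations), and r = -0.49 without CBD replicates 8 and 6. For the others, r with this factor was 0.12 for miR-128-3p, -0.030 for miR-129-1-3p, 0.032 for miR-129-2-3p and 0.32 for miR-137-3p. Levels of all 5 are read numbers divided by an effective library size that contains this factor. How much of these patterns comes from the scaling was not tested.

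Of 27 other miRNAs studied in excitability, epilepsy or hippocampal plasticity, 22 were in the table. None of the 22 had an adjusted p under 0.05 between CBD and vehicle mice in limma, and 1 had an unadjusted p under 0.05, beside 7.83% of the table. With the run term 6 of the 22 had an unadjusted p under 0.05, beside 14.9% of the table, and 0 an adjusted one. Of the 22, 8 were higher and 14 lower with CBD, with a median difference of -0.20, beside 108 higher and 173 lower and a median of -0.08 over all 281. The smallest p belonged to miR-153-3p, a regulator of vesicle release proteins, at a mean of 6.72 ± 1.33 in CBD mice and 7.78 ± 0.65 in vehicle mice and a difference of -1.06 (SE 0.43, limma p = 0.0204, adjusted p = 0.470). Next were the neuronal miR-124-3p with -0.54 (adjusted p = 0.578), miR-335-5p with -0.47 (adjusted p = 0.578) and miR-23a-3p with -0.51 (adjusted p = 0.581). Between runs, 13 of the 22 had an adjusted p under 0.05, beside the 48.0% of the whole table.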

How the data were processed

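Per the labels, total RNA was extracted with Trizol and libraries were made with an Illumina TruSeq small RNA kit. Per the submitters' processing notes, the authors used the mouse build mm10 and the tools edgeR and limma, and no source used here names the aligner, the counter or the miRNA catalogue. Deposited by the authors were log2 reads per 1000000 reads (RPM) for 281 miRNAs, and 100% of the values were log2 of a whole read number plus 0.5 within 1e-06 reads, so reads were recovered. No molecular identifiers are named, so Wilson intervals cover counting error only. The authors' deposited comparison gives log2 fold changes, p-values, t and log-odds scores and a fold ratio, of which the scores and the ratio were not used. For single miRNAs its mean level lies as far as 0.459 (log2) from that of the 20 deposited columns, for a reason not stated. Library size and run come from the deposited technical table, per the file headers, and 0 columns of samples were left unused.

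Mouse numbers mark separate mice and pair none. limma 3.58.1 in R 4.3.3 was fitted to all 281 log2 values with treatment as the term and a variance trend, with two-sided tests and Benjamini and Hochberg adjustment over 281 at 0.05. A low-value filter, log2 above 0 in at least 10 libraries, kept 281 miRNAs and all 5 members. Ratios and correlations used Python 3.11.15 with 100000 permutations, or all 12000 relabellings within runs. The limma fits and a permutation test were tried on simulated data. The limma simulation drew values independently for each miRNA, so it does not cover patterns that miRNAs share. The members, the named neighbours (the 3 with the highest r for each), the list of 27 miRNAs, of which the 4 with the smallest p are named, and the marker lists were chosen with earlier results of these data known. Alternatives were other scalings, covariates, weights, a filter and left-out libraries. Voom weights, leaving out 3 libraries of low scaling factor and a scaling factor term were chosen after seeing the data, as were the 10 relations with depth.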

Additional observations from a re-analysis of the deposited data

Results flagged for a closer look

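The highest and lowest library was compared with its nearest neighbour in each group of 10 for the 5 miRNAs and the 2 ratios of miR-129, 28 ends of 14 groups in all, and 3 stood apart, where chance flags about 1 in 20 groups.

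For miR-128-3p, vehicle replicate 5 had a log2 level of 13.44, with a gap of 0.597 of the group's range to the next library. It was the smallest library, with 242178 reads, and had a scaling factor of 0.788. The log2 ratio of miR-129-1-3p to miR-129-2-3p was -2.59 in CBD replicate 3, a gap of 0.576 of the range, and -2.80 in vehicle replicate 7, a gap of 0.486. These 2 libraries came from runs 1 and 3, and their 3p reads numbered 216 and 1307 in the first and 91 and 635 in the second, for copies 1 and 2. In CBD replicate 3 the low level was that of copy 2, 10.54 against a run mean of 11.22, while copy 1 stood at 7.95 against 7.78.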

How the results depend on the processing

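No paired analysis was possible because mouse numbers differ between the groups. In the settings tried, 0 of the 5 miRNAs passed the treatment test, and the signs near 0 turned with the setting. For miR-128-3p the difference was 0.0027 with the run term and in the exact permutation within runs, 0.063 with median centring, 0.066 with quantile normalisation and 0.0074 with the scaling factor as a term. For miR-129-1-3p it was -0.012 with the run term or the exact permutation, and for miR-129-5p -0.013 with array weights and the run term and -0.043 without the 3 libraries of low scaling factor and with the run term. Leaving out 1 library at a time gave -0.14 to 0.049 for miR-128-3p, 0.064 to 0.30 for miR-129-5p, -0.012 to 0.25 for miR-129-2-3p, -0.029 to 0.25 for miR-129-1-3p and -0.27 to -0.016 for miR-137-3p. The count of the 281 miRNAs with an adjusted p under 0.05 was 24 with array weights, and at an unadjusted p under 0.05 it was 42 with the run term, 57 with array weights and 57 with both (16 to 33 without 1 library).

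Between runs, the number of the 5 that passed was 1 with median centring, 0 with 1 summed value for every library, 0 with the scaling factor term and 0 to 3 without 1 library, and of all 281 it was 84 with the scaling factor term and 98 to 159 without 1 library. Without the 3 libraries of low scaling factor, 3 of the 5 and 100 of the 281 passed. Spreads here are the highest minus the lowest fitted run level, with treatment in the fit. For miR-129-1-3p the call was lost at spreads of 0.95, 0.98 and 1.05 (median centring, 1 summed value, scaling factor term). For miR-129-2-3p the call was lost at 1.03, 0.98, 0.92 and 1.18 (median centring, quantile normalisation, 1 summed value, scaling factor term). A call was gained at 1.13 and 1.10 for miR-137-3p (median centring, quantile normalisation) and at 0.59 for miR-129-5p (without the 3 libraries). Without 1 library the spreads were 0.18 to 0.47 for miR-128-3p, 0.61 to 0.83 for miR-129-5p, 0.96 to 1.40 for miR-129-2-3p, 0.92 to 1.34 for miR-129-1-3p and 0.85 to 1.18 for miR-137-3p.

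Without the 3 libraries the treatment difference was -0.23 for the arm ratio of miR-129 and 0.046 for the copy ratio; without 1 library these were -0.045 to 0.18 and -0.12 to 0.074. When run means were not removed, r was -0.62 and -0.54 for miR-128-3p with miR-129-1-3p and miR-129-2-3p, 0.19 with miR-137-3p, 0.54 and -0.64 for miR-129-5p with miR-129-2-3p and miR-137-3p, and -0.52 and -0.53 for miR-137-3p with miR-129-1-3p and miR-129-2-3p. With median centring r was 0.0020 for miR-128-3p with miR-129-5p, 0.013 with miR-137-3p and -0.59 for miR-129-5p with miR-137-3p, and with quantile normalisation 0.17 and 0.15 for the first 2 and 0.64 for the copies' 3p arms. Without the 3 libraries r was -0.055 for miR-129-5p with miR-129-1-3p, 0.51 for the copies' 3p arms, and 0.088 and 0.077 for miR-137-3p with miR-129-1-3p and miR-129-2-3p. The causes were not tested. Low read numbers limit miR-129-1-3p most, with 22 reads in CBD replicate 6.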
